A study of Mus musculus with 20 samples.

Results

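The genes described here encode enzymes and carriers of steroid hormone metabolism. They were chosen by name: every row of the expression table whose symbol starts with Hsd17b, Hsd3b, Hsd11b, Srd5a or Akr1c, together with Cyp11a1, Cyp17a1, Cyp19a1, Star and Sts. This gave 36 of 23284 rows, because Sts had no row. They comprised 11 Hsd17b, 9 Akr1c, 7 Hsd3b, 3 Srd5a and 2 Hsd11b genes and the 4 remaining single genes. Poly-A RNA was sequenced from tissue recombinants, which are grafts that put epithelium together with embryonic mesenchyme. In all 5 groups the mesenchyme came from the urogenital sinus of Sprague Dawley rats, the grafts were collected 3 months after implantation, and doxycycline was given in drinking water for 3 months. The groups were SVE (mouse seminal vesicle epithelium), PE (mouse prostate epithelium), and seminal vesicle epithelium carrying the construct labelled mNKX3.1, the hairpin labelled UTY_sh, or both (mNKX3.1+UTY_sh), with 4 libraries each. The growth protocol gives the epithelial donors as C57Bl/6J mice aged 2 months, whereas the strain field names a hybrid of 129/SvImJ and C57Bl/6J. The labels do not say what the m of mNKX3.1 stands for, and the protocol names both a wild type and a mutant form in the inducible pTRIPZ vector. Nothing in them ties each library to its own animal, so p-values measure the spread between these libraries only, which may be technical. The series' title asks about NKX3.1, G9a and UTY in prostate differentiation, and the comparisons below ask how steroid enzyme transcripts differed between the 2 epithelia and with the construct and the hairpin.

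Androgens direct the growth and secretion of both the prostate and the seminal vesicle. Testosterone arrives from the blood, 5α-reductases (Srd5a genes) turn it locally into the more potent dihydrotestosterone, and 3α- and 17β-hydroxysteroid dehydrogenases of the Akr1c and Hsd17b families turn these hormones into weaker forms or back. Making steroids from cholesterol needs Star, Cyp11a1, Cyp17a1 and the Hsd3b isomerases, which belong mainly to gonads and adrenal, while several Hsd17b enzymes and Hsd3b7 work mostly on fatty acids, sterols or bile acid precursors.

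Values are the authors' log2 expression values. Among 5801 genes with a mean below 2.5, the median was 2.27, the SD 0.475 and the 95th percentile 3.06, and values near this floor carry little information. A gene was tested when its value reached 5 or more in 4 or more libraries, a filter that 13456 genes passed. 13 of the 36 steroid genes passed: Akr1c12, Akr1c13, Hsd11b1, Hsd17b4, Hsd17b7, Hsd17b10, Hsd17b11, Hsd17b12, Hsd3b7, Srd5a1, Srd5a2, Srd5a3 and Star. Of the 23 that did not, 10 exceeded 3.06 in at most 2 libraries. Akr1c12 passed only through its 8 PE and mNKX3.1 libraries. Its calls between these and other libraries were thus favoured by the filter, and the counts below include it. Depth was about 14920000 to 29820000 reads per library. The 50 most abundant genes of the whole table took 33.2% to 35.7% of the reads in PE and mNKX3.1 libraries, and 57.8% to 67.1% in the other 12 libraries. Differences are log2 differences from limma's moderated test (with a variance trend and Benjamini-Hochberg adjustment over the 13456 genes), ± its standard error, and a gene was called changed at an adjusted p below 0.05.

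The libraries did not separate as their labels do, which touches every comparison with a construct or hairpin group. Uty, the gene named by the hairpin, had a value of 9.29 ± 0.21 in SVE (SD, n = 4) and 9.22 ± 0.23 in UTY_sh, a difference of -0.07 ± 0.11 that was not called (adjusted p = 0.999, limma). Its value was 9.15 ± 0.09 in mNKX3.1+UTY_sh, and 10.24 ± 0.14 in PE and 10.23 ± 0.11 in mNKX3.1. No gene differed between mNKX3.1 and PE. Each mNKX3.1 library lay close to a weighted sum of 2 PE libraries: over 306 well-expressed genes the squared residual was 2.11 to 3.7 times the counting noise, for example for mNKX3.1 replicate 1 as 0.47 of PE replicate 1 plus 0.52 of PE replicate 3. The reverse fit, of a PE library from the mNKX3.1 group, left 5.31 to 28.84 times the noise. Likewise mNKX3.1+UTY_sh replicates 2, 3 and 4 lay near sums of SVE and UTY_sh libraries, at 2.0 to 3.86 times the noise, and UTY_sh replicate 3 near a sum of SVE replicates 1 and 2, at 3.13. The first mNKX3.1+UTY_sh replicate was at 5.65, and UTY_sh replicates 1, 2 and 4 were at 9.02 to 16.5. SVE libraries fitted from UTY_sh left 15.45 to 28.73. Each figure is for the best pair, chosen by that residual, and more pairs were tried for mNKX3.1+UTY_sh. Whether these groups are independent of the libraries they resemble was not tested, so below the libraries are named as labelled and PE against SVE is given first. Its means use no construct or hairpin library, but its errors come from the spread over all 20 libraries. Fitted on its own 8 libraries it called 7 of the 13 genes, without Hsd11b1 (adjusted p = 0.0828, limma), Hsd17b12 (0.0536) and Srd5a1 (0.109). The share of all tested genes called in that fit is not reported here.

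Prostate epithelium differed from seminal vesicle epithelium in 10 of the 13 tested steroid genes, 6 higher and 4 lower. This share lies near the background, because 62.1% of all tested genes were called in this comparison, 31.8% higher and 30.4% lower. The 2 Akr1c genes rose most, by 3.43 and 2.05, and Hsd17b11 and Srd5a2 fell most, by 1.05 and 0.96. The median difference of the 13 genes was 0.20, against 0.02 over all tested genes, and the median absolute difference was 0.47 against 0.36. Values of the 2 groups did not overlap for 5 of the 13 genes (Akr1c12, Akr1c13 and Hsd17b4 higher, Hsd17b11 and Hsd3b7 lower), where 48.9% of all tested genes did not. With libraries rescaled on the genes outside the 50 most abundant, a setting chosen after seeing the data, 7 steroid genes were called, 3 higher and 4 lower. That setting called 8312 of the 13456 tested genes, 3514 of them higher. Fitted on the 8 PE and SVE libraries alone, 7 steroid genes were called as well, without a share of all tested genes reported here.

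**Figure D1:**
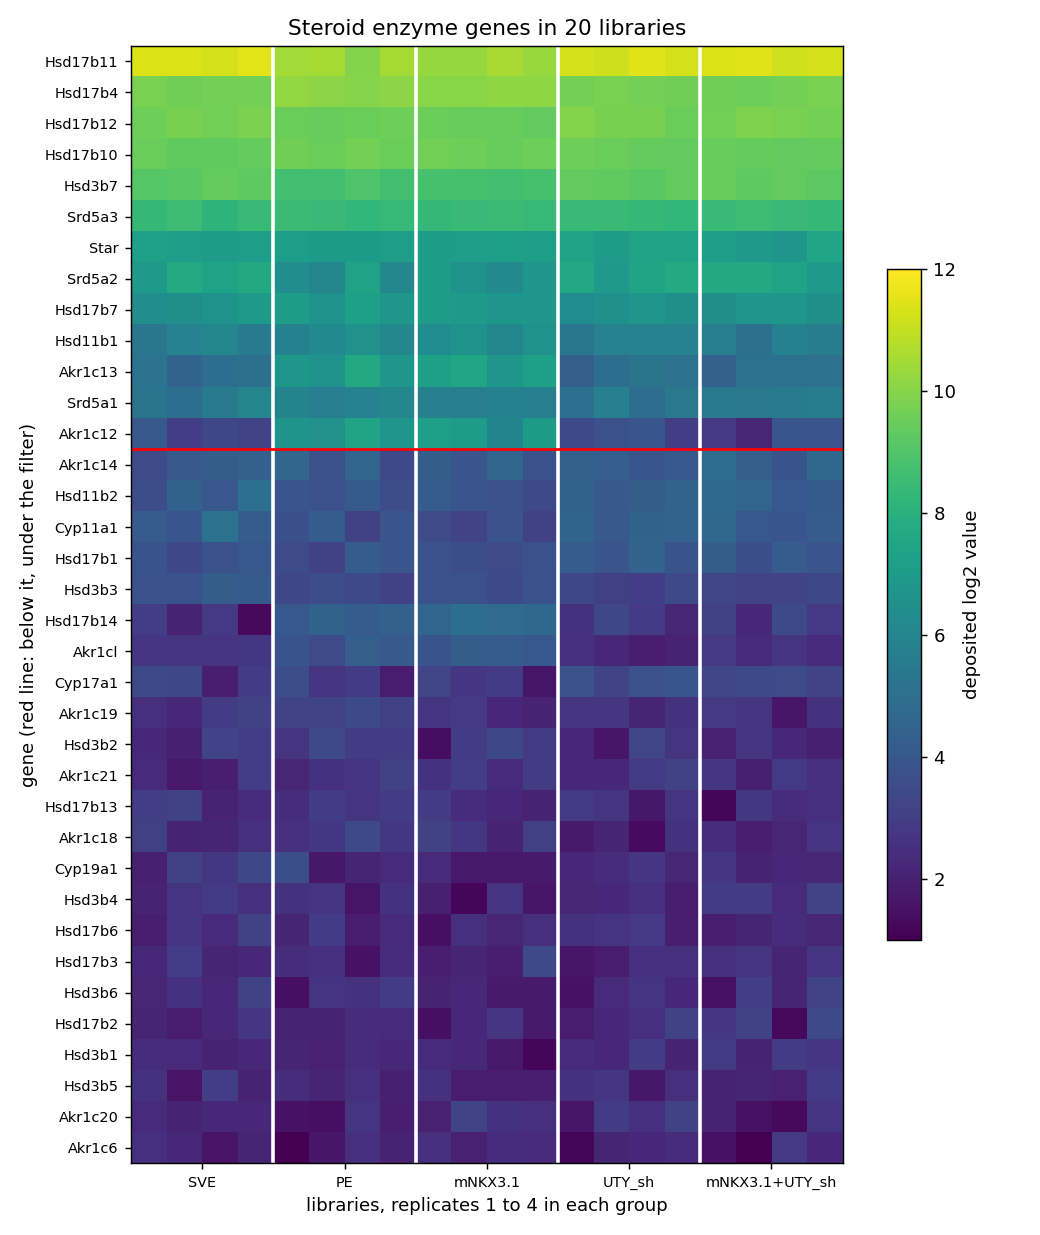
Heat map of the deposited log2 value (colour) of the 36 steroid metabolism genes (vertical axis, ordered by mean) in the 20 libraries (horizontal axis, 4 per group); the red line parts the 13 tested genes from the 23 under the filter. Akr1c12 and Akr1c13 stand higher, and Hsd17b11 lower, in the 8 PE and mNKX3.1 libraries than in the other 12.

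**Figure D2:**
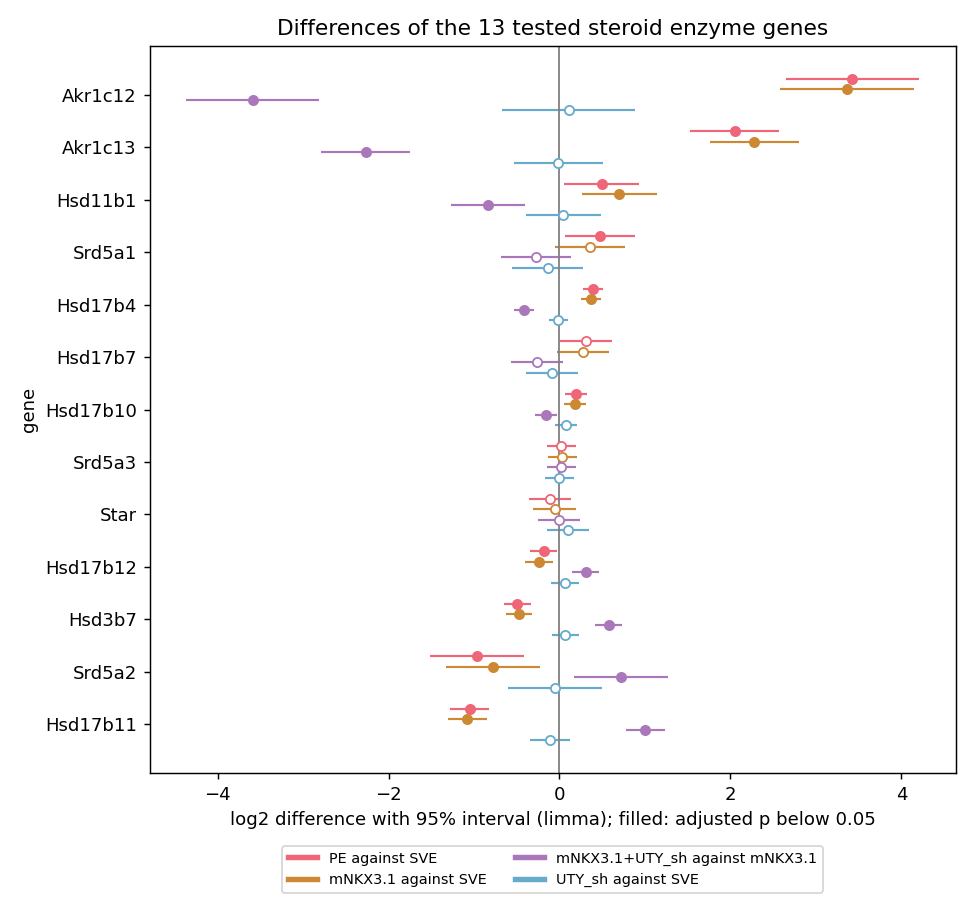
Log2 difference (horizontal axis) of the 13 tested genes (vertical axis) in 4 comparisons, with 95% intervals from limma; filled points were called at an adjusted p below 0.05. PE and mNKX3.1 differed from SVE with like values, from 3.43 for Akr1c12 to -1.08 for Hsd17b11, and no point of UTY_sh against SVE is filled.

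Akr1c12 and Akr1c13 are aldo-keto reductase genes that lie close together on mouse chromosome 13, of a family that reduces keto groups of steroids and other compounds. The 250 bases before their start sites (RefSeq, GRCm38.p6, chr13:4279400-4279649 on the minus strand and chr13:4190937-4191186 on the plus strand) are shown because these genes moved together. Capitals mark a forkhead motif.
Akr1c12: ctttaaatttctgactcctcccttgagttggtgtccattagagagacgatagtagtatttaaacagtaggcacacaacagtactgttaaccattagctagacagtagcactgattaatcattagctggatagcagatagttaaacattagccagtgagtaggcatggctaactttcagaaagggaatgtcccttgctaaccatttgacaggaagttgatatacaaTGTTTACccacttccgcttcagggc
Akr1c13: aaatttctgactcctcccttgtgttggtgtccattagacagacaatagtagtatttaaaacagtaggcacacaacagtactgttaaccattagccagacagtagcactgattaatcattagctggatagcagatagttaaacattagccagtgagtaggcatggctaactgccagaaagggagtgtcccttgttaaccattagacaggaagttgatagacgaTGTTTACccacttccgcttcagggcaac
The 2 windows were identical at 235 of 254 aligned positions (92.5%). TGTTTAC began 25 bases before the start of Akr1c12, at -25, and at -28 for Akr1c13. On either strand it occurred in 3.2% of 32851 RefSeq promoter windows and in 4 of the 28 steroid genes with a window, the other two being Akr1c21 and Hsd11b1. As the Akr1c12 and Akr1c13 windows are near copies, their matches are not separate. The steroid hormone response half-site AGAACA (16.1% of windows), TAAGTA, an NKX3.1 motif (6.6%), and CAAGGTCA, bound by NR5A steroidogenic factors (1.3%), were in neither of these windows. Of the 28 steroid genes 4 had AGAACA, 1 had TAAGTA and 0 had CAAGGTCA. A match of letters is a description and not a bound site.

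In Akr1c12, the SVE libraries had values of 4.05, 3.06, 3.38 and 3.26. The PE libraries had values of 6.68, 6.58, 7.44 and 6.75. The mNKX3.1 libraries had values of 7.22, 7.06, 5.95 and 6.97. Every PE and mNKX3.1 library was thus far above every SVE library. UTY_sh libraries were at 3.49, 3.71, 3.93 and 3.05, and mNKX3.1+UTY_sh libraries at 2.83, 2.19, 3.94 and 3.89, none of them above the highest SVE library. The gene was 3.43 ± 0.37 higher in PE than in SVE (10.7-fold on the log2 scale of the table, adjusted p = 2.93e-07, limma) and 3.37 ± 0.37 higher in mNKX3.1 (adjusted p = 3.67e-07). It passed the filter only through its 8 PE and mNKX3.1 libraries, so it had to differ between those and the rest. Since its other values lie near the floor, the size of the fold is uncertain.

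Akr1c13 had values of 5.17, 4.50, 4.97 and 5.07 in SVE. PE libraries were at 6.84, 6.66, 7.64 and 6.77, and mNKX3.1 libraries at 7.26, 7.47, 6.84 and 7.25. UTY_sh libraries had 4.33, 4.96, 5.22 and 5.15, and those with both agents 4.36, 5.14, 5.11 and 5.15. The PE and mNKX3.1 values, 6.66 to 7.64, were again clear of the other 12 libraries, 4.33 to 5.22. How many of all tested genes split in this way was not counted, here or for the genes below. Between PE and SVE alone, 48.9% did not overlap. The difference from SVE was 2.05 ± 0.25 in PE (4.15-fold, adjusted p = 1.13e-06, limma) and 2.28 ± 0.25 in mNKX3.1 (4.85-fold, adjusted p = 3.12e-07). The 2 genes share 28.6% of their transcripts' 50-base stretches in the GENCODE M21 annotation, so counting could have moved some reads between them. The summed log2 level of 8 prostate epithelium markers differed widely within the SVE, UTY_sh and mNKX3.1+UTY_sh groups. It was 19.80 in SVE replicate 1 against 10.78 to 14.96 in replicates 2 to 4, 18.71 in UTY_sh replicate 3, and 19.32 in mNKX3.1+UTY_sh replicate 4. These are the highest sums of their groups. Akr1c13 was also highest in each of these 3 libraries, while Akr1c12 was highest in SVE replicate 1 and UTY_sh replicate 3 and, at 3.89, just below the 3.94 of mNKX3.1+UTY_sh replicate 3. For Akr1c13 the next library of the group lay close, at 5.07 in SVE, 5.15 in UTY_sh and 5.14 in mNKX3.1+UTY_sh. UTY_sh replicate 2, with a marker sum of 18.48, had an Akr1c13 value of 4.96. This was below the 5.15 of UTY_sh replicate 4, whose sum was 14.12, while for Akr1c12 the 2 libraries had 3.71 and 3.05. The part of these markers in the Akr1c values was not tested. Without those 3 libraries Akr1c12 was 3.63 higher in PE than in SVE.

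Srd5a1, Srd5a2 and Srd5a3 are the 5α-reductase genes. The type 2 enzyme, Srd5a2, is the main form in the urogenital tract, type 1 is more widespread, and Srd5a3 reduces polyprenol for protein glycosylation. In SVE the Srd5a2 values were 6.97, 7.74, 7.39 and 7.67. In PE they were 6.40, 6.05, 7.33 and 6.13, and in mNKX3.1 they were 7.03, 6.60, 6.24 and 6.77. PE replicate 3 lay inside the SVE range, while the other PE libraries were below it. UTY_sh libraries had 7.53, 6.92, 7.40 and 7.70, and mNKX3.1+UTY_sh libraries 7.63, 7.63, 7.33 and 6.94, both overlapping SVE. Srd5a2 was lower in PE by 0.96 (log2 difference -0.96 ± 0.26, 1.95-fold, adjusted p = 0.00388, limma), and without PE replicate 3 the difference was -1.25 (adjusted p = 0.000128). In mNKX3.1 against SVE it was -0.78 ± 0.26 (adjusted p = 0.015), and without mNKX3.1 replicate 3 it was -0.64 and no longer called (adjusted p = 0.056).

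Srd5a1 had values of 5.23, 4.99, 5.52 and 5.99 in SVE and of 5.97, 5.69, 5.87 and 6.09 in PE, which overlapped. The mNKX3.1 libraries lay close together at 5.78, 5.76, 5.85 and 5.77. UTY_sh libraries had 5.02, 5.80, 4.94 and 5.40, and mNKX3.1+UTY_sh libraries 5.43, 5.42, 5.55 and 5.66. The rise in PE of 0.47 ± 0.20 (adjusted p = 0.0436, limma) was opposite in direction to the fall of Srd5a2, and it was lost in 10 of 15 other settings, with an adjusted p of 0.109 when only PE and SVE libraries were fitted. In mNKX3.1 the difference of 0.36 (95% interval -0.05 to 0.77) was not called. Within a library, Srd5a2 stood above Srd5a1 on the log2 scale by 2.01 ± 0.50 in SVE and 2.10 ± 0.66 in UTY_sh (SD, n = 4). The gap was 1.87 ± 0.44 in mNKX3.1+UTY_sh, but 0.57 ± 0.62 in PE and 0.87 ± 0.36 in mNKX3.1. This gap is not corrected for transcript length, so only its change between groups can be read. The gap ranged from 1.67 to 2.75 in SVE and from 0.05 to 1.46 in PE, without overlap. Among all tested genes, taken singly, 48.9% did not overlap between PE and SVE. Hairpin libraries reached into the PE range, with gaps of 1.12 to 2.51 without the construct and 1.28 to 2.22 with it. In mNKX3.1 the gap was 0.38 to 1.25. Its change between groups was not tested. Srd5a3 stayed between 8.16 and 8.57 in all 20 libraries, and its PE difference was 0.02 (95% interval -0.15 to 0.19).

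**Figure D3:**
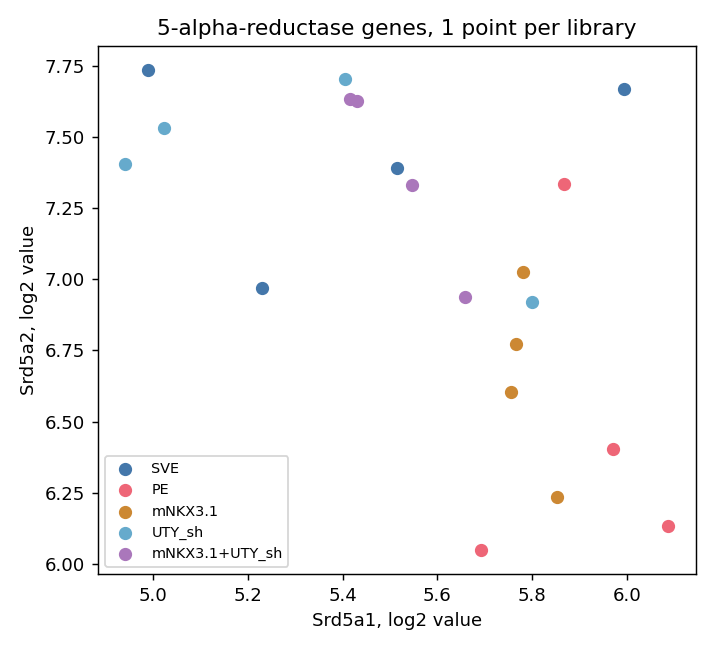
Log2 value of Srd5a2 (vertical axis) against Srd5a1 (horizontal axis), 1 point per library, coloured by group. PE and mNKX3.1 libraries lie between 5.69 and 6.09 on the Srd5a1 axis and, except for PE replicate 3 (7.33), at 7.03 or less on the Srd5a2 axis.

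Among the 17β-hydroxysteroid dehydrogenase genes, 5 of 11 passed the filter. Hsd17b11 encodes a short-chain dehydrogenase of lipid droplets that acts on androstanediol. Its values were 11.44, 11.41, 11.27 and 11.53 in SVE, 10.49, 10.52, 9.94 and 10.50 in PE, and 10.26, 10.24, 10.54 and 10.29 in mNKX3.1. UTY_sh libraries had 11.29, 11.18, 11.46 and 11.29, and mNKX3.1+UTY_sh libraries 11.43, 11.44, 11.20 and 11.29. The 8 PE and mNKX3.1 values, 9.94 to 10.54, were all below the other 12, 11.18 to 11.53. Hsd17b11 was lower by 1.05 in PE (difference -1.05 ± 0.11, 2.07-fold, adjusted p = 1.85e-07, limma) and by 1.08 in mNKX3.1 (-1.08 ± 0.11, adjusted p = 1.36e-07). PE replicate 3 was the lowest library of all, and without it the PE difference was -0.91. The 250 bases before the start sites of Hsd17b11 (chr5:104021797-104022046, minus strand) and of Srd5a2 (chr17:74047861-74048110, minus strand) are given to set the genes that fell beside the Akr1c pair. Neither held any of the 4 motifs searched, which says only that those letters are not in these windows.
Hsd17b11: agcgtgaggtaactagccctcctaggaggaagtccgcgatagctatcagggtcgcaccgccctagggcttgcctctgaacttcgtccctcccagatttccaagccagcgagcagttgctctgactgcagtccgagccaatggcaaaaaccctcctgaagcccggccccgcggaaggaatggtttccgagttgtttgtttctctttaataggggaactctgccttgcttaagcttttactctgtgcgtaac
Srd5a2: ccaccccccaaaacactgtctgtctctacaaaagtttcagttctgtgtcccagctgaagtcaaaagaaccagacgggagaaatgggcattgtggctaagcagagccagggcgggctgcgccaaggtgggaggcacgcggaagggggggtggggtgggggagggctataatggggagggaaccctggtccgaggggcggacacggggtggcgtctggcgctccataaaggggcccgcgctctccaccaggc

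Hsd17b4 encodes the peroxisomal multifunctional enzyme of fatty acid β-oxidation, which also oxidises oestradiol. Its values were 9.78, 9.63, 9.70 and 9.71 in SVE and 10.21, 10.07, 10.02 and 10.10 in PE. The mNKX3.1 libraries had 10.04, 10.04, 10.11 and 10.11. The UTY_sh libraries had 9.69, 9.78, 9.68 and 9.62, and the libraries with both agents 9.60, 9.57, 9.69 and 9.79. This split was small but complete, with 8 libraries at 10.02 or more and 12 at 9.79 or less. Hsd17b4 was higher by 0.39 ± 0.06 in PE (1.31-fold, adjusted p = 6.34e-06, limma) and by 0.37 ± 0.06 in mNKX3.1 (adjusted p = 1.31e-05). Hsd17b10, a mitochondrial dehydrogenase, averaged 9.38 in SVE and 9.58 in PE, a rise of 0.20 ± 0.06 (adjusted p = 0.00899) that was not called after the rescaling (0.12, adjusted p = 0.0817). Hsd17b12, a ketoreductase of very-long-chain fatty acid elongation, averaged 9.69 in SVE and 9.51 in PE. Its difference of -0.19 ± 0.08 (adjusted p = 0.0437) was lost in 8 of 16 other settings. Hsd17b7, which works in cholesterol synthesis, averaged 6.61 in SVE and 6.92 in PE, a difference of 0.31 that was not called (95% interval 0.01 to 0.62, adjusted p = 0.0662).

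**Figure D4:**
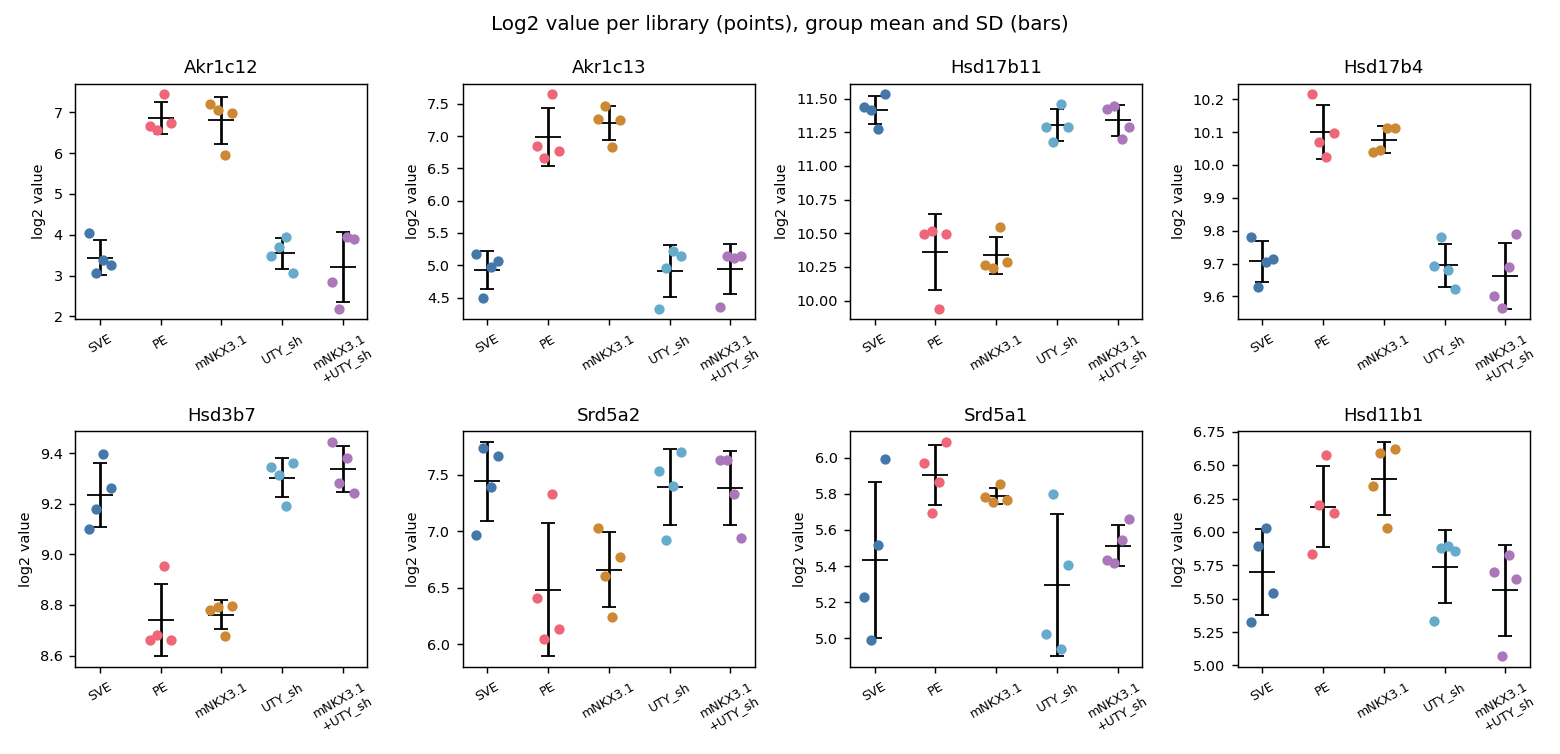
Log2 value (vertical axis) of 8 tested genes in each library (points) of the 5 groups (horizontal axis), with the group mean and SD as bars; vertical axes differ between panels. For Akr1c12, Akr1c13, Hsd17b11, Hsd17b4 and Hsd3b7 the PE and mNKX3.1 libraries do not overlap with the others, whereas Srd5a2, Srd5a1 and Hsd11b1 overlap. The share of all tested genes with this split was not counted, and 48.9% did not overlap between PE and SVE alone. Akr1c12 passed the filter only through its PE and mNKX3.1 libraries.

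Hsd3b7 was the only Hsd3b gene above the filter. It encodes the enzyme of that family which acts on bile acid precursors rather than on hormones. Its values were 9.10, 9.18, 9.40 and 9.26 in SVE, 8.66, 8.68, 8.95 and 8.66 in PE and 8.78, 8.79, 8.68 and 8.80 in mNKX3.1. UTY_sh libraries had 9.35, 9.31, 9.19 and 9.36, and mNKX3.1+UTY_sh libraries 9.44, 9.28, 9.38 and 9.24. All PE and mNKX3.1 libraries were at 8.95 or less and all others at 9.10 or more. The difference was -0.50 ± 0.07 in PE (1.41-fold lower, adjusted p = 1.42e-05, limma) and -0.47 ± 0.07 in mNKX3.1 (adjusted p = 2.42e-05). 93.9% of the 50-base stretches of Hsd3b7 also lie in the GENCODE gene model Gm49388, so this value is uncertain as to its gene. Hsd3b1, the gonadal and adrenal isomerase, was at the floor everywhere. Its values were 2.42, 2.29, 2.04 and 2.26 in SVE, 2.16, 2.02, 2.45 and 2.22 in PE, and 2.31, 2.28, 1.75 and 1.17 in mNKX3.1. UTY_sh libraries had 2.32, 2.21, 2.91 and 2.09, and mNKX3.1+UTY_sh libraries 2.85, 2.10, 2.91 and 2.72. Hsd3b2, Hsd3b4, Hsd3b5 and Hsd3b6 did not exceed 3.46 in any library.

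The 11β-hydroxysteroid dehydrogenases act on glucocorticoids: Hsd11b1 mainly regenerates the active hormone and Hsd11b2 inactivates it. Hsd11b1 had values of 5.32, 5.89, 6.03 and 5.54 in SVE, 5.84, 6.20, 6.58 and 6.14 in PE, and 6.35, 6.59, 6.03 and 6.62 in mNKX3.1. UTY_sh libraries had 5.33, 5.88, 5.89 and 5.86, and mNKX3.1+UTY_sh libraries 5.70, 5.07, 5.83 and 5.65. PE and SVE overlapped, while the 4 mNKX3.1 libraries lay above every SVE library, the lowest of them by less than 0.01. The rise was 0.49 ± 0.21 in PE (adjusted p = 0.0482, limma), lost in 10 of 15 other settings, and 0.70 ± 0.21 in mNKX3.1 (adjusted p = 0.00717). H6pd, whose product supplies the reduced cofactor of the Hsd11b1 enzyme, averaged 8.85 ± 0.45 in SVE (SD, n = 4) and 10.83 ± 0.18 in PE. It was 1.98 ± 0.17 higher in PE (adjusted p = 2.24e-08). Hsd11b2 stayed between 3.45 and a value just under 5.

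Among the genes chosen by name, Star, which carries cholesterol into mitochondria, was the only one of hormone synthesis from cholesterol that passed the filter. Cyp21a1, an adrenal enzyme outside this choice, also passed and is given with the cell markers below. Star lay between 6.82 and 7.52 in all libraries and averaged 7.17 ± 0.10 in SVE and 7.06 ± 0.07 in PE (SD, n = 4). Its differences of -0.11 (95% interval -0.36 to 0.14) in PE and -0.06 in mNKX3.1 were not called. Cyp11a1, the side-chain cleavage enzyme that follows Star, ranged from 3.11 to 5.09, above the floor in every library. Cyp17a1, which makes androgens, ranged from 1.62 to 3.95, and Cyp19a1, the aromatase, from 1.69 to 3.65.

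The other genes under the filter were Akr1c6, Akr1c14, Akr1c18, Akr1c19, Akr1c20, Akr1c21, Akr1cl, Hsd17b1, Hsd17b2, Hsd17b3, Hsd17b6, Hsd17b13, Hsd17b14 and Hsd3b3. Akr1c18, the 20α-hydroxysteroid dehydrogenase that inactivates progesterone, reached 3.42 at most, and Hsd17b3, the testicular enzyme that makes testosterone, also 3.42. Akr1c14, a 3α-hydroxysteroid dehydrogenase, lay between 3.42 and 4.88, and Hsd17b1, which reduces oestrone, between 3.17 and 4.46. Neither was called in the fit without a filter, described next.

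A fit of all 23284 genes, an alternative setting that keeps low genes, called 3 of the 23 genes in PE against SVE, 2 of them higher, where it called 37.5% of all genes, with 19.4% of all genes higher. Hsd17b14, a dehydrogenase of small sugars and steroids, had values of 3.00, 2.04, 2.84 and 1.29 in SVE, at the floor, and 4.04, 4.41, 4.19 and 4.37 in PE. It was 4.57, 4.96, 4.85 and 4.66 in mNKX3.1, and it was at most 3.44 in the UTY_sh and mNKX3.1+UTY_sh libraries. The difference was 1.96 ± 0.33 in PE (adjusted p = 7.2e-05, limma) and 2.47 ± 0.33 in mNKX3.1 (adjusted p = 4.64e-06). Akr1cl, an Akr1c-like gene, had 2.72, 2.71, 2.70 and 2.78 in SVE, 3.84, 3.53, 4.35 and 4.06 in PE, and 3.84, 4.25, 4.18 and 4.01 in mNKX3.1. Its rise was 1.22 ± 0.21 in PE (adjusted p = 6.37e-05) and 1.34 ± 0.21 in mNKX3.1 (adjusted p = 2.09e-05). As these values lie near or little above the floor, no fold is given for either gene. Hsd3b3 was lower in PE, with 3.35, 3.59, 3.47 and 3.18 against 3.83, 3.77, 4.24 and 4.11 in SVE (difference -0.59 ± 0.18, adjusted p = 0.0122). It had 3.74, 3.74, 3.41 and 3.77 in mNKX3.1, 3.36, 3.09, 3.04 and 3.42 in UTY_sh, and 3.30, 3.26, 3.24 and 3.37 in mNKX3.1+UTY_sh. Thus every other group lay below the 4 SVE libraries, and the differences from SVE of -0.32 with the construct (adjusted p = 0.176), -0.76 with the hairpin (adjusted p = 1, unadjusted 0.000401) and -0.69 with both (adjusted p = 0.999, unadjusted 0.000937) were not called. It shares 27.2% of its 50-base stretches with Hsd3b2. In mNKX3.1 against SVE the same fit called 37.6% of all genes, 19.5% higher and 18.2% lower, and 4 of the 23: Hsd17b14, Akr1cl, Cyp11a1 (-0.93, adjusted p = 0.00879) and, near the floor, Cyp19a1 (-0.90, adjusted p = 0.0477).

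**Figure D5:**
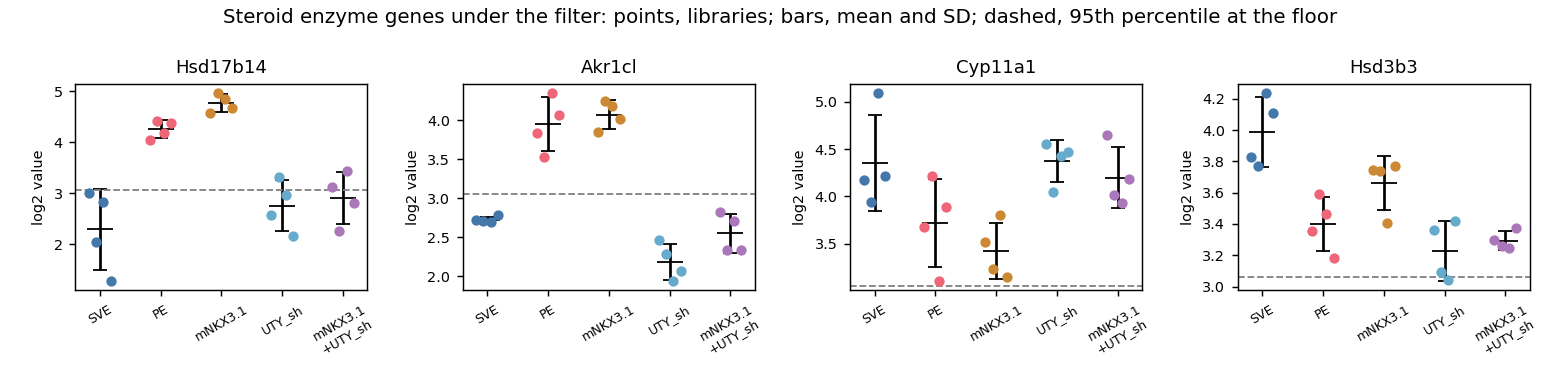
Log2 value (vertical axis) of 4 genes under the filter in each library (points) of the 5 groups (horizontal axis), with group mean and SD as bars and a dashed line at 3.06, the 95th percentile of genes at the floor. Hsd17b14 and Akr1cl rise above the line in all PE and mNKX3.1 libraries, while Cyp11a1 is above it in every library.

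With the construct, 9 of the 13 tested steroid genes differed from SVE, 5 higher and 4 lower, where 62.3% of all tested genes were called, 31.7% higher and 30.6% lower. They were the genes called in PE except Srd5a1, with the directions given above. The PE and mNKX3.1 comparisons share the SVE libraries. mNKX3.1 against SVE did not overlap for 7 of the 13 genes, against 54.9% of all tested genes. Between mNKX3.1 and PE, 0 of 13 genes and 0.0% of all tested genes were called by limma, with 0 of the 13 and 65 of all genes (0.483%) at an unadjusted p below 0.05. All 13 genes overlapped, where 0.639% of all tested genes did not. The 95% intervals of this difference were -0.84 to 0.72 for Akr1c12, -0.29 to 0.75 for Akr1c13, -0.26 to 0.20 for Hsd17b11 and -0.37 to 0.73 for Srd5a2.

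With the hairpin alone, 0 of 13 steroid genes and 0.0% of all tested genes differed from SVE by limma, and 0 of the 13 and 316 of all genes (2.35%) had an unadjusted p below 0.05. Values of the 2 groups overlapped for all 13 genes, where 1.23% of all tested genes did not overlap. The intervals were -0.67 to 0.89 for Akr1c12, -0.53 to 0.51 for Akr1c13, -0.34 to 0.12 for Hsd17b11 and -0.60 to 0.50 for Srd5a2. With construct and hairpin together the count against SVE was also 0 of 13 and 0.0% of all genes, with 0 of the 13 and 557 of all genes (4.14%) at an unadjusted p below 0.05. Again all 13 genes overlapped with SVE, where 2.43% of all tested genes did not. The same libraries set against mNKX3.1 gave 9 of 13 called, 4 higher and 5 lower, where 63.8% of all tested genes were called, 31.4% higher and 32.4% lower. Akr1c12 was lower by 3.59 (-3.59 ± 0.37, adjusted p = 1.59e-07), Akr1c13 lower by 2.26 (-2.26 ± 0.25, adjusted p = 3.22e-07) and Hsd17b11 2.01-fold higher (mean 11.34 against 10.33, adjusted p = 3.2e-07). Akr1c12 had passed the filter only through PE and mNKX3.1 libraries, so it had to be lower here. Hsd11b1 (-0.84), Hsd17b4 (-0.41) and Hsd17b10 (-0.16) were lower, and Hsd3b7 (0.57), Srd5a2 (0.72) and Hsd17b12 (0.30) higher. The call of Srd5a2 was lost without mNKX3.1 replicate 3 or without mNKX3.1+UTY_sh replicate 1 or 2, with adjusted p of 0.0641 to 0.0787. The call of Hsd17b10 was lost in 5 of 16 other settings (adjusted p up to 0.148). These 9 genes, 90.0% of the 10 called in PE against SVE, went the opposite way there, as did 89.0% of all genes called in PE against SVE. As mNKX3.1 libraries lay near sums of PE libraries, and most mNKX3.1+UTY_sh libraries near sums of SVE and UTY_sh libraries, the 2 comparisons are not separate evidence. mNKX3.1+UTY_sh and mNKX3.1 did not overlap for 8 of the 13 genes, against 61.9% of all tested genes. The fit without a filter called 38.5% of all genes here, 18.7% higher and 19.8% lower, and 5 of the 23 low steroid genes. Hsd17b14 (-1.86 ± 0.33, adjusted p = 0.000126) and Akr1cl (-1.52 ± 0.21, adjusted p = 4.38e-06) were lower, and Cyp11a1 (0.77 ± 0.27, adjusted p = 0.0275) and, both at the floor, Hsd3b1 (0.77) and Hsd3b4 (0.99) were higher.

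The interaction sets the hairpin's effect in construct-bearing libraries against its effect in the others, as the first difference minus the second. It was called for 7 of the 13 genes, 2 higher and 5 lower, where 48.1% of all tested genes were called, 24.0% higher and 24.0% lower. It was -3.70 ± 0.53 for Akr1c12 (adjusted p = 1.73e-05, limma), -2.25 ± 0.35 for Akr1c13 (adjusted p = 4.48e-05) and 1.11 ± 0.16 for Hsd17b11 (adjusted p = 1.42e-05). As Akr1c12 passed the filter only through PE and mNKX3.1 libraries, its p-value carries little weight here. Hsd17b4 (-0.40), Hsd3b7 (0.51), Hsd11b1 (-0.88) and Hsd17b10 (-0.23) were also called. The interaction of Hsd17b10 was not called in 9 of 24 other settings (adjusted p up to 0.0915), and that of Hsd11b1 not without the 3 libraries rich in Pbsn (adjusted p = 0.0841). For Srd5a2 the interaction was 0.77 ± 0.37 and not called (adjusted p = 0.0939). Without a filter, 27.1% of all genes were called, 13.4% higher and 13.7% lower, and 3 of the 23 low genes: Hsd17b14 (-2.32), Akr1cl (-0.98) and, at the floor, Hsd3b4 (1.32).

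The steroid enzymes work with other proteins, and 39 of 61 listed partner genes were tested. In PE against SVE 31 of them were called, 20 higher, beside the 62.1% of all tested genes. Of 8 tested genes that supply cofactors or electrons, 4 rose and 0 fell: H6pd, given above, Cyb5r1 by 1.79 ± 0.16 (adjusted p = 2.63e-08, limma), Cyb5b by 1.08 ± 0.09 (adjusted p = 1.45e-08) and Por, the reductase of microsomal P450 enzymes, by 0.55 ± 0.08 (adjusted p = 1.41e-05). The median difference of this list was 0.30, where that of all tested genes was 0.02. Of 9 tested cholesterol delivery genes 3 rose and 4 fell (list median -0.15). The esterifying enzyme Soat1 was 1.41 ± 0.21 higher (adjusted p = 1.24e-05), and the sterol carrier Stard5 went from 10.89 ± 0.10 in SVE to 9.02 ± 0.14 in PE (SD, n = 4), a difference of -1.87 ± 0.08 (adjusted p = 5.4e-13). Stard3, a late endosomal cholesterol carrier, was lower too (-0.51, adjusted p = 0.000123).

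Of 4 other tested steroid oxidoreductases 2 rose and 1 fell (median 0.31). Cyp7b1, which hydroxylates androstanediol and other ligands of oestrogen receptor β, rose by 2.56 ± 0.40 (adjusted p = 2.22e-05, limma), from a mean of 5.39 to 7.95, and Cbr1 by 0.75 ± 0.09. Cyp1b1, an oestrogen hydroxylase, was lower (-0.83 ± 0.18, adjusted p = 0.000749). Of 8 tested conjugation genes 5 rose and 3 fell (median 0.42). Sumf1, which activates sulfatases, was 0.32 higher, and the glucuronosyltransferase gene Ugt1a6a was lower (-1.07 ± 0.15, adjusted p = 4.64e-06). Of 10 tested receptors and receptor chaperones 6 rose and 3 fell (median 0.76). Esr1, oestrogen receptor α, rose by 1.56 ± 0.15 (adjusted p = 8.25e-08), Hsp90ab1 by 1.09 ± 0.11 and Nr3c2, the mineralocorticoid receptor, by 1.03 ± 0.14. In mNKX3.1 against SVE 28 of the 39 were called, 18 higher, beside 62.3% of all tested genes called and 31.7% higher. In mNKX3.1+UTY_sh against mNKX3.1 32 were called, 12 higher, beside 63.8% and 31.4%. The hairpin alone gave 0 of 39.

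Markers of some other cells moved with these groups, and in bulk RNA fewer cells of a type cannot be told apart from less RNA per cell. The counts below stand beside 31.8% of all tested genes called higher and 30.4% lower in PE against SVE. No marker list was tested against these shares. The mesenchyme was rat tissue, and its reads, where they aligned to mouse genes, cannot be told apart from mouse reads. In PE against SVE all 8 smooth muscle markers fell, and their summed log2 level was 15.63 to 16.10 in PE and 15.68 to 15.92 in mNKX3.1. It was 16.64 to 17.35 in SVE, and the hairpin libraries lay at 16.83 to 17.43 without the construct and 16.92 to 17.28 with it. Of 8 fibroblast markers 3 fell and 0 rose, and of 8 luminal epithelium markers 6 rose and 1 fell. All 5 tested adipocyte markers rose, with sums of 6.81 to 9.97 in SVE and 9.78 to 11.04 in PE. The 9 seminal vesicle markers all fell and 7 of 8 prostate markers rose, as the labels of the epithelia say. Of 6 basal epithelium markers 2 rose and 3 fell, of 6 endothelium markers 1 rose and 3 fell, and of 6 tested leukocyte markers 1 rose and 0 fell. Of 8 hepatocyte markers Cyp2e1 was tested and rose by 2.30, and 5, Ahsg and Ttr among them, were at the floor. Of 11 kidney markers none was tested and 6, among them Umod and Nphs1, were at the floor. Of 9 markers of steroid-producing cells only Cyp21a1, the adrenal 21-hydroxylase, was tested: it averaged 7.65 ± 0.23 in SVE and 4.43 ± 0.76 in PE (SD, n = 4), a difference of -3.22 ± 0.27 (adjusted p = 1.45e-08, limma), while Nr0b1, Cyp11b1 and Cyp11b2 were at the floor. The part of these cell types in the steroid gene differences was not tested.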

How the data were processed

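Tissue recombinants gave 20 poly-A libraries (TruSeq, Illumina), per the labels' protocols, 4 in each of 5 groups. Per the submitters' processing notes, the tools were TopHat2 2.0.4, Cufflinks 2.0.2, bcl2fastq 1.8.4 and DESeq, with mm9 as the genome. How reads were counted, with which annotation, and how rat reads were treated is not given in the sources used here. In the table, the authors deposited 1 log2 value per gene and library (0.0193 to 22.42). Antilogs between log2 values of 11 and 13 were whole multiples of 1 library's unit (100% within 0.1), which gave the depths, whereas between 5 and 10 only 18.8% to 21.2% were, so reads could not be recovered and no count test was run. Whether low values are compressed was not tested, so the differences of low genes are uncertain in size.

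No pseudocount was added. 1 limma 3.58.1 model (R 4.3.3) was fitted to all 20 libraries, with a mean per group, a variance trend, a minimum value of 5 in 4 libraries, and adjustment within each comparison. It was tested on simulated data. Replicate numbers follow accession order and pair nothing. Members and gene lists were chosen with earlier results of these data known, and lists support nothing independently. Per-library values are given for genes called with a difference of at least 1 and for Srd5a1, Srd5a2, Hsd11b1, Hsd17b4 and Hsd3b1. Those of Hsd3b7, Hsd17b14, Akr1cl and Hsd3b3 were added after they were seen. From each partner list up to 3 called genes with the smallest p in PE against SVE are named, though not all of them are reported here. Por was added after its values were seen. Alternatives were another variance model, a fit of the compared groups only, other filters, other scalings and libraries left out. Promoters came from RefSeq (GRCm38.p6), aligned with biopython 1.88 in Python 3.11.15. 28 of 36 genes matched, without Akr1c20, Cyp17a1, Hsd11b2, Hsd17b1, Hsd17b14, Hsd17b2, Hsd17b4 and Star. The windows of a chromosome were left out before matching, so a gene without a match may still have a RefSeq promoter.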

Additional observations from a re-analysis of the deposited data

Results flagged for a closer look

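In groups of 4, a library was looked at again when its gap to the nearest other library exceeded Dixon's 95% critical share of the group's range, which chance alone gives in about 1 group in 20. Of 85 combinations of gene and group looked at, 8 had such a library. PE replicate 3 was the lowest PE library for Hsd17b11 (9.94) and the highest for Hsd3b7 (8.95). mNKX3.1 replicate 3 was the highest of its group for Hsd17b11 (10.54) and the lowest for Hsd3b7 (8.68) and Hsd3b3 (3.41). So both libraries numbered 3 stood apart, and for Hsd17b11 and Hsd3b7 in opposite directions. Of the weighted sums of 2 PE libraries, that of replicates 1 and 2 came nearest to mNKX3.1 replicate 3, while sums that include PE replicate 3 came nearest to the other mNKX3.1 libraries. The summed log2 level of the 9 seminal vesicle markers was 15.01 in PE replicate 3 and 17.68 to 17.81 in the other PE libraries, and 17.73 in mNKX3.1 replicate 3 against 16.81 to 17.03 in the other mNKX3.1 libraries. Adipocyte markers summed to 11.04 in PE replicate 3 against 9.78 to 9.96, and to 9.88 in mNKX3.1 replicate 3 against 10.51 to 10.62. Sums of the other marker lists are not given for these libraries. The part of any marker list in the enzyme values was not tested. The remaining libraries were mNKX3.1+UTY_sh replicate 1 for Akr1c13 (4.36), UTY_sh replicate 1 for Hsd11b1 (5.33) and UTY_sh replicate 2 for Star (7.05).

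By a test of the interaction in limma, the construct's difference was not the same with and without the hairpin for 7 of the 13 tested genes. In that test 48.1% of all tested genes were called. The interaction was -3.70 for Akr1c12, -2.25 for Akr1c13, -0.88 for Hsd11b1, -0.23 for Hsd17b10, 1.11 for Hsd17b11, -0.40 for Hsd17b4 and 0.51 for Hsd3b7. In the fit without a filter it was called for 3 of the 23 low genes, where 27.1% of all genes were called. It was -0.98 for Akr1cl, -2.32 for Hsd17b14 and, at the floor, 1.32 for Hsd3b4. These interactions rest on the libraries labelled mNKX3.1 and on hairpin libraries whose Uty differences from SVE were not called. Uty averaged 9.22 in UTY_sh and 9.15 in mNKX3.1+UTY_sh, against 9.29 in SVE and 10.23 in mNKX3.1.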

How the results depend on the processing

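Over the alternatives that tested the same 13 genes, the steroid genes called numbered 7 to 10 in PE against SVE, 8 to 11 in mNKX3.1 against SVE, 8 to 9 in mNKX3.1+UTY_sh against mNKX3.1 and 6 to 9 in the interaction. The main fit called 62.1%, 62.3%, 63.8% and 48.1% of all tested genes in these comparisons. In the same order the steroid genes called numbered 10, 13, 13 and 9 of 36 without a filter, where 37.5%, 37.6%, 38.5% and 27.1% of all genes were called. They numbered 7, 7, 7 and 5 of the 9 that passed the stricter filter. The share of all genes called under that filter is not reported here, so these counts cannot be set against it. In the other 3 comparisons the count was 0. Of the 13 tested genes' values under alternatives, 1471 stayed on their side of the threshold, 51 lost the call and 10 gained one. No called value changed direction, while 82 of the values that were not called had another sign. Akr1c12, Akr1c13, Hsd17b11, Hsd17b4, Hsd3b7 and, in PE against SVE, Srd5a2 kept their calls throughout. In PE against SVE, Hsd11b1 (adjusted p = 0.0234 to 0.172), Srd5a1 (0.00486 to 0.163) and Hsd17b12 (0.00369 to 0.134) lost theirs under several alternatives, and the cause was not tested. The rescaling outside the 50 most abundant genes, chosen after the data were seen, called 3514 of 8312 genes higher, against 4275 of 8362. No paired analysis was possible because the labels give no replicate numbers. Depth could not be used to set counting intervals for low genes, because whole reads could not be recovered there.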
